A study of Mus musculus with 42 samples.

Results

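Constitutive LAD bins are the 1499 of 24639 bins of 100 kb along chr1 to chr19 that lay in a lamina-associated domain (LAD) in each of 14 liver libraries. They make up 6.08% of the bins and 149.9 Mb. The members were chosen by the LAD calls themselves: a bin belonged to a LAD of a library when LADs covered 50 kb or more of it, and a member had to meet this in all libraries. The LAD calls of the members are therefore a description and no finding, and "constitutive" refers here to these liver libraries and not to other cell types. The libraries come from chromatin immunoprecipitation of lamin B1 (LMNB1) followed by sequencing (ChIP-seq), with 1 library per mouse. Wild-type C57Bl/6 mice were either non-synchronized (NS, 2 mice, collected before fasting) or fasted for 24 h and refed ad libitum from circadian time 0 (CT0), and collected at CT0 or 6, 12, 18, 24 or 30 h later (CT6 to CT30), with 2 mice per time point. The labels call the mice female in 1 field and male in another, and give no age. The LADs were called in each mouse with EDD on mm10 and were deposited as start and end only, so that no read count or score stands behind a LAD and the read depth is unknown. The labels list 1 input library (chromatin without antibody) per time point, so the LAD calls of its 2 mice may share an input.

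LMNB1 is a protein of the nuclear lamina, the meshwork that lines the inner nuclear membrane. LADs are large stretches of chromatin that touch this meshwork, and they are known to be rich in A and T, poor in genes and mostly silent. Genes of other tissues, such as neuronal adhesion molecules and sensory receptors, are often found in them. In liver nuclei, most DNA comes from hepatocytes, but these libraries hold all cells of the tissue, so calls of single cell types cannot be told apart. The deposited files hold no expression. All 6 hepatocyte marker genes listed for this tissue (Alb, Apoa1, Ttr, Serpina1a, Tat and Cps1) had their transcription start site in a bin in no LAD of any library. So did 82.8% of all protein-coding genes, so a count of 6 does not set these genes apart.

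The base composition of the members can be read from the sequence itself. Shown are the 200 bases whose GC content is nearest to that of their bin, taken from the middle bin of the 3 longest runs of constitutive bins and, for comparison, of 2 of the 3 longest runs of bins in no LAD. All are the plus strand of GRCm38 (mm10), and capitals mark CG dinucleotides.
constitutive, chr15:19123001-19123200, intergenic: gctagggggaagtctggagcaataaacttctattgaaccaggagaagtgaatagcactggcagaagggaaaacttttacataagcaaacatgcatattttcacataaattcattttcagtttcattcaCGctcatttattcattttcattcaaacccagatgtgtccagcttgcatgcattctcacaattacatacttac
constitutive, chr1:113602401-113602600, intergenic: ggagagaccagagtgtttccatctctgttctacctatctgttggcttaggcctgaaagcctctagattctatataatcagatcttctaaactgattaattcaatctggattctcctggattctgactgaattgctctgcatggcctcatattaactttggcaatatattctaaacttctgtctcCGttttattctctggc
constitutive, chr5:58600401-58600600, intergenic: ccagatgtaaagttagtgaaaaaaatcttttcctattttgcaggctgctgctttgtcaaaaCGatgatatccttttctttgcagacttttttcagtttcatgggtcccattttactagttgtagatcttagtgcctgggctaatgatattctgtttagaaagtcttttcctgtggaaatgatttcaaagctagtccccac
in no LAD, chr5:130611801-130612000, intron of Caln1: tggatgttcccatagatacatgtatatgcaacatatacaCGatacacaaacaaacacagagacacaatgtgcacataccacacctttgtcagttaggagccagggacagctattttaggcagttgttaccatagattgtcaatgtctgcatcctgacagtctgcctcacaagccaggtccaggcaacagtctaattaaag
in no LAD, chr13:47301201-47301400, intergenic: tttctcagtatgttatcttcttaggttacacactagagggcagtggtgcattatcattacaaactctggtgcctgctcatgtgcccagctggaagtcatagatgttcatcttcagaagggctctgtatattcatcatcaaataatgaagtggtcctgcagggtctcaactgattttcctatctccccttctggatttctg
The GC content of these windows was 37%, 39.5% and 37% in the constitutive runs and 43% in both runs in no LAD. The constitutive windows held 1 CG dinucleotide each and the others 1 and 0. The windows follow their bins by construction and illustrate the composition without adding to it.

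Across all bins, the members were the most AT-rich class. Their median GC content was 37.1% (interquartile range 36.4 to 37.8%), against 43.5% (41.2 to 46.1%) in the 15670 bins in no LAD. The 3911 bins in a LAD of 7 to 13 libraries had a median of 37.8% and the 3559 bins in 1 to 6 libraries one of 39.8%. The members thus differed by 6.45 percentage points from bins in no LAD. On single chromosomes the median of the members was lower in 19 of 19, with differences from −8.34 percentage points on chr11 to −5.02 on chr18. Soft-masked repeats made up a median of 42.8% of a member and 28.2% of a bin in no LAD, and the share was higher in the members on 19 of 19 chromosomes. Bins of 7 to 13 libraries were near the members, at 42.1%. The ratio of observed to expected CG dinucleotides was 0.140 in the members and 0.205 in bins in no LAD. Bins of 1 chromosome and of 1 LAD are not independent, and no test over bins was made.

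**Figure D1:**
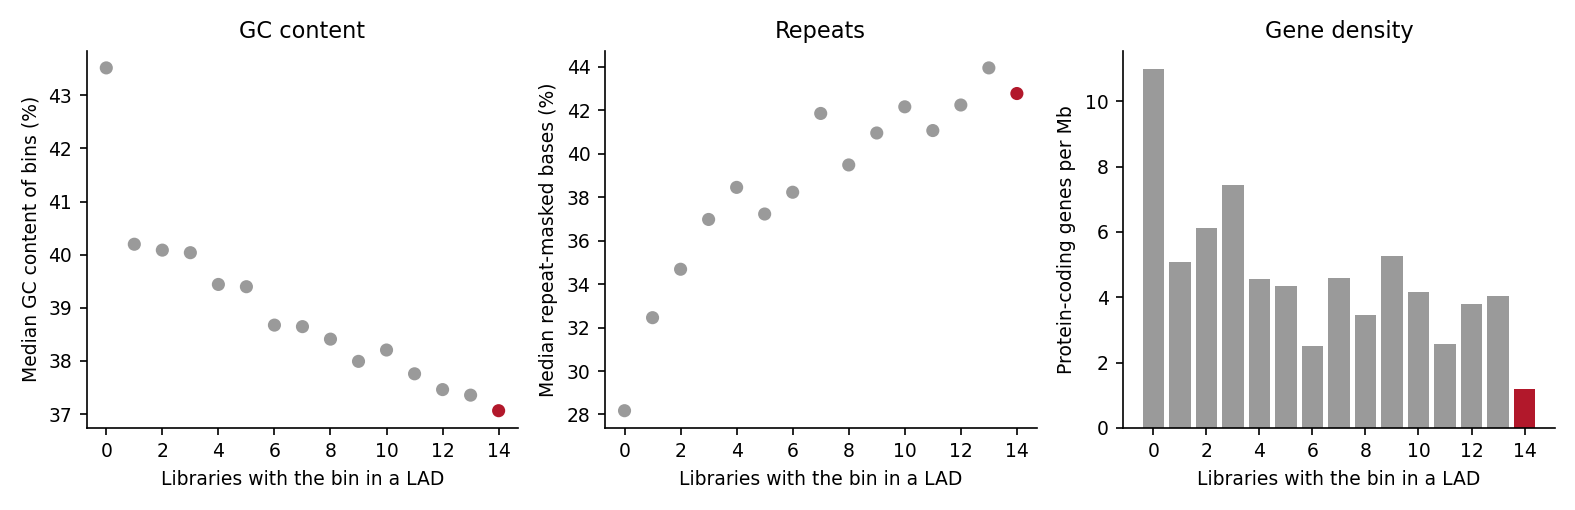
Median GC content (%), median repeat-masked share (%) and protein-coding genes per Mb of 100-kb bins, by the number of libraries with the bin in a LAD (0 to 14, x axis; the 1499 members in red). GC content goes from 43.5% at 0 to 37.1% at 14 libraries, and gene density from 11 to 1.18 genes per Mb with an uneven course between.

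Protein-coding genes were scarce in the members. Of the 20807 protein-coding genes of chr1 to chr19 in GENCODE vM21, 177 had their transcription start site in a member, which is 0.851% of the genes in 6.08% of the bins. This is 1.18 genes per Mb, against 11 in bins in no LAD and 8.45 over all bins. A gene density below that of the whole chromosome was found in the members of 19 of 19 chromosomes. Of the members, 1363 (90.9%) held no start site of a protein-coding gene, compared with 47.7% of the bins in no LAD. Long intergenic RNAs (lincRNAs) were also sparser, with 127 genes or 0.847 per Mb against 2.63. In each of these values, bins of 7 to 13 libraries were nearer to the members than to bins in no LAD. They had 3.99 protein-coding genes and 1.02 lincRNAs per Mb, and 82.3% of them held no protein-coding start site. Pseudogenes were about as dense as in bins in no LAD, with 627 or 4.18 per Mb against 4.30. Bins of 7 to 13 libraries had 5.80 per Mb, bins of 1 to 6 had 5.54 and all bins 4.71. Of the 627, 454 were processed pseudogenes, which are copies of mRNAs returned to the genome. The gene density of the members rests on the library with the fewest LADs. Without NS replicate 1, the bins common to the other libraries came to 195.3 Mb and held 2.14 genes per Mb.

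The step from 13 to 14 libraries shows which genes stood just outside. The 1044 bins in 13 libraries had a GC content of 37.4% and 4.05 protein-coding genes per Mb, with 423 genes. Of these genes, 262 were olfactory or vomeronasal receptors. Leaving out receptors of both kinds, the density was 1.54 genes per Mb in 13 libraries, 0.834 in the members and 10.8 in bins in no LAD. Olfactory receptor genes (Olfr) made up 205 of the genes in 13 libraries, 168 of them on chr2. For 183 of the 205 the missing library was NS replicate 1 and for 22 it was CT30 replicate 2. For 43 vomeronasal receptor genes and 14 secretoglobin genes it was CT0 replicate 1. In 1002 of the 1044 bins the 14th library had 0 kb of LAD, so most of these bins did not miss the rule by a narrow margin. At the threshold itself, 9 members had a library with less than 60 kb of LAD and 16 bins in 13 libraries had 40 kb or more in the remaining one. In contrast, 1453 of the 1499 members were covered over their whole length in every library. The bins missing in 1 library only were 454 for NS replicate 1, 219 for CT30 replicate 1, 153 for CT0 replicate 1, 74 for CT30 replicate 2, and 55 or fewer for each other library. NS replicate 1 had the smallest LAD coverage on these chromosomes (333.0 Mb), and CT18 replicate 2 the largest (651.6 Mb). The part of library quality in these differences was not tested.

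The members were spread over all 19 chromosomes, but unevenly. Chr15 had the largest share, with 152 bins or 14.6% of the chromosome, followed by chr6 with 182 bins (12.1%) and chr11 with 125 bins (10.2%). Chr3 had the smallest, with 25 bins (1.56%), and chr13 held 22 bins (1.83%) and no protein-coding gene in them. The 5 chromosomes with the most members held 739 bins, or 49.3%. The share of bins in a LAD of any library varied less, from 29.5% on chr18 to 41.6% on chr16. Of the bins ever found in a LAD, the members were 38.6% on chr15, 32.7% on chr6 and 4.38% on chr3. Few members lay near the chromosome ends, although the nearest was 0.737 Mb from one. Within 10 Mb of the chromosome start were 2.20%, and within 10 Mb of the end 3.80%. The zone at the start holds 7.71% of the length, with unsequenced bases counted. Gene density in the members was highest on chr17 (5.54 genes per Mb, 46 genes) and chr7 (4.53 genes per Mb, 34 genes), and was between 0 and 2.78 elsewhere.

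Adjacent members joined into 52 blocks of 0.4 to 10.8 Mb, with a median length of 2250 kb. The 8 blocks of 5 Mb or more held 560 members (37.4%), and 4 blocks were 1 Mb or shorter. In every library each of the 52 blocks overlapped a single LAD, once LADs separated by less than 1 kb were joined, although a LAD could end within the outermost bins of its block. A block filled a median of 56.8% of the median extent of that LAD. Of the blocks, 11 held no start site of a protein-coding gene, 30 held 1 to 4, and 5 held 10 or more, with 86 of the 177 genes between them.

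**Figure D2:**
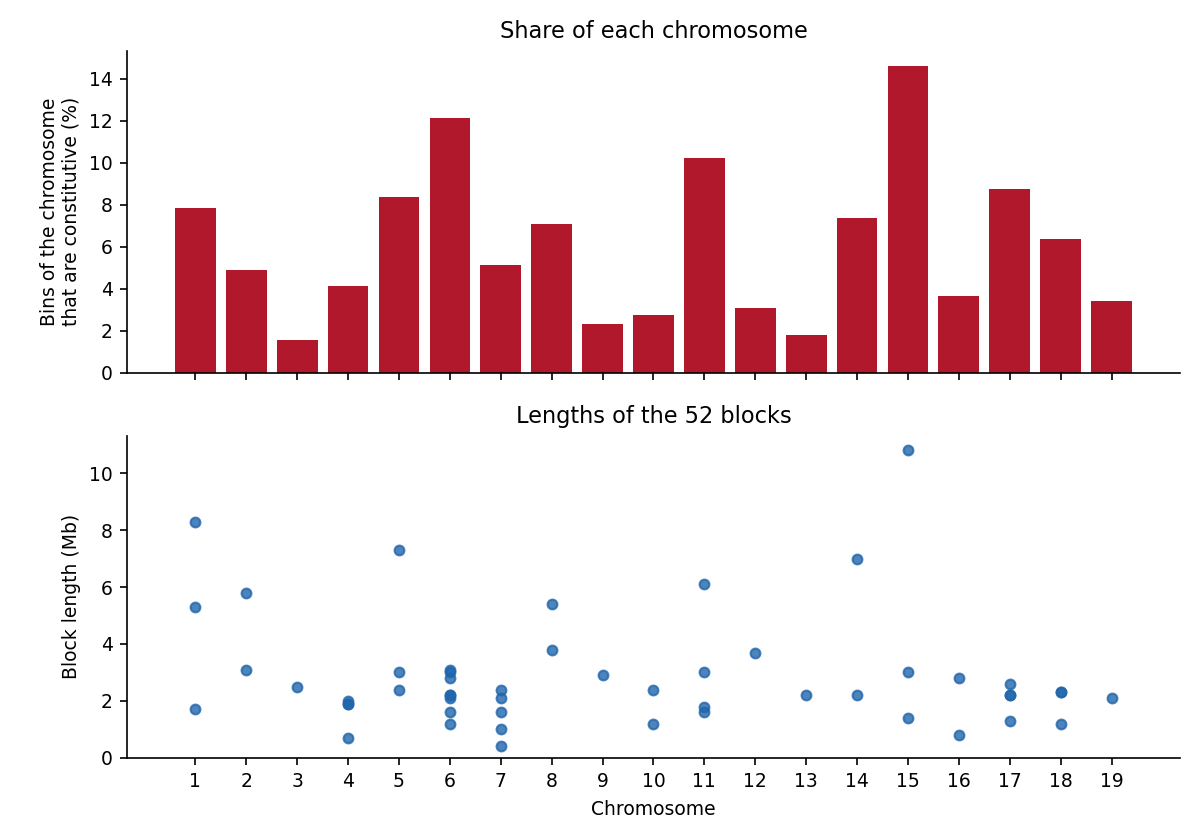
Share of the 100-kb bins of each chromosome that are constitutive (%, bars) and length of each of the 52 blocks (Mb, 1 point per block), by chromosome. Chr15 has the largest share (14.6%) and the longest block (10.8 Mb), and chr3 the smallest share (1.56%).

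The longest block spanned chr15:13800001-24600000 and held 5 genes. Cdh9, Cdh10, Cdh12 and Cdh18 encode type II classical cadherins, which mediate adhesion between cells and are best known from neurons, and Acot10, an acyl-CoA thioesterase gene, lies within the body of Cdh12. The LAD around this block measured 11.59 and 11.17 Mb in NS, 12.64 and 11.49 Mb at CT0, 11.87 and 11.65 Mb at CT6, and 11.13 and 12.08 Mb at CT12 in replicates 1 and 2. At CT18 it measured 12.16 and 11.72 Mb, at CT24 12.47 and 11.56 Mb, and at CT30 12.12 and 12.10 Mb. The time points overlapped within 11.13 to 12.64 Mb, and the spread between CTs was not above that between replicates (F ratio 0.283; exact permutation test, adjusted p = 0.951).

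The second longest block, chr1:109500001-117800000, held 7 genes. Among them were Cdh7 and Cdh19, again type II cadherins, Dsel, an enzyme of dermatan sulfate synthesis, and Cntnap5a, a contactin-associated protein. The third, chr5:55000001-62300000, held Pcdh7, a protocadherin, and G6pd2, a glucose-6-phosphate dehydrogenase gene. In chr14:106600001-113600000 lay Slitrk1, Slitrk5 and Slitrk6, transmembrane proteins that shape neurites and synapses, and Tpm3-rs7. The block chr11:36700001-42800000 held 9 genes. Among them were Tenm2, a teneurin at synapses, and Mat2b, Hmmr, Nudcd2 and Ccng1, which are not neuronal genes by their known roles.

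The remaining blocks among the 10 longest held few genes. Chr2:95100001-100900000 contained Lrrc4c, a postsynaptic adhesion protein, with Gm10800 and Gm10801. Chr8:97100001-102500000 contained only Cdh8 and chr1:25200001-30500000 contained Adgrb3, an adhesion receptor of synapses, with 2 genes without a known role. Chr8:49500001-53300000, 3.8 Mb long, contained no protein-coding start site. Chr12:45500001-49200000 contained only Nova1, a splicing factor of neurons. The 10 longest blocks held 635 members, or 42.4%.

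Of the gene families listed, type II cadherins had the largest share in the members. Of 13 genes, 7 had their start site in a member, 1 in a bin of 7 to 13 libraries, 3 in a bin of 1 to 6 and 2 in no LAD. They came from 3 blocks, so the genes are not independent. Contactins and contactin-associated proteins, which organize axons and myelin, followed with 5 of 13 (Cntnap5a, Cntn5, Cntn6, Cntn4 and Cntnap2) in 4 blocks. The LRRTM, FLRT, SLITRK and LRRN adhesion proteins had 4 of 16, the fourth being Lrrtm4. Protocadherins had 3 of 67 (Pcdh7, Pcdh10 and Pcdh17), and teneurins and latrophilins 1 of 7 (Tenm2). Over all lists of neural adhesion genes, 20 of 121 genes (16.5%) lay in the members, beside 0.851% of all genes. These counts were nearly the same in each set of 13 libraries: type II cadherins stayed at 7, and contactins and their associated proteins came to 5 or 6.

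None of the 92 potassium channels and none of the 14 voltage-gated sodium channels listed lay in a member, which is near the 0.851% of all genes. This does not hold for ion channels as a whole, whose other lists are not reported here.

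Sensory receptor families differed from each other. Vomeronasal type 2 receptors, which sense pheromones in the vomeronasal organ, had 34 of 121 genes (28.1%) in the members, from 3 blocks on chr7 and chr17, with Vmn2r45, Vmn2r44 and Vmn2r98 farthest from a border. Vomeronasal type 1 receptors had 11 of 208 (5.29%) and olfactory receptors 7 of 1128 (0.621%), although 670 olfactory receptors lay in bins of 7 to 13 libraries and 251 in no LAD. Single libraries set these numbers. Without NS replicate 1 the bins common to the remaining libraries held 190 olfactory receptors, without CT30 replicate 2 they held 29, and without CT0 replicate 1 they held 54 vomeronasal type 1 receptors. The vomeronasal type 2 receptors came to between 34 and 38 in these sets. The 7 olfactory receptors, Olfr132 to Olfr138 without a gap in the numbers, lay side by side in the block at chr17:38100001-40700000.

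That block was the richest in genes, with 28. It also held 14 of the 15 Esp genes on chr1 to chr19, which encode small secreted peptides that act as pheromones, with Esp18, Esp16 and Esp15 farthest from a border, and Crisp1 and Crisp3, cysteine-rich secretory proteins. On chr6 the block 78100001-80200000 held 6 of the 7 Reg genes (Reg1, Reg2, Reg3a, Reg3b, Reg3d and Reg3g), secreted lectins known from pancreas and gut. Another block of chr6, 67900001-69500000, held no protein-coding start site but 44 immunoglobulin kappa variable (Igkv) segments, 20.2% of all 218 immunoglobulin variable genes listed. Skint genes, expressed in skin and thymus, had 4 of 11 in the members and the other 7 in bins of 7 to 13 libraries. On chr5 the block at 10700001 to 13100000 held 14 genes, among them 11 named Gm and Speer1. Genes named Gm, without an assigned role, came to 30 in the members, in 10 blocks. The receptor, Esp, Skint and Reg genes belong to families of related genes, in which reads may not be placed uniquely. The identity between copies was not measured, and its effect on the LAD calls was not tested. Singletons in the members included Ins1, which encodes insulin and is used in pancreatic beta cells, and Adcyap1, a neuropeptide. Both were named after their values were seen.

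No gene of the lists for liver, clock and lamina lay in the members, and in lists of this size 0 is near the 0.851% of all genes. None of 222 genes in the liver lists (cytochrome P450, major urinary proteins, plasma proteins, carboxylesterases, sulfotransferases, UDP-glucuronosyltransferases and Slco transporters) had a start site there, and 199 lay in no LAD. None of the 21 core clock genes did: 20 lay in no LAD, and Rorb lay in a bin of 7 to 13 libraries. The 16 genes of the lamina and nuclear envelope, the 39 Hox genes and the 80 histone genes all lay in bins in no LAD. Of the 78 ribosomal protein genes, 76 did. The study lists 205 symbols with a 12 h period and 252 with a 24 h period of mRNA, of which 194 and 240 matched a gene. Of the matched genes 0 lay in the members, again near the share of all genes (0.851%), and 94.8% and 96.3% lay in no LAD, beside 82.8% of all protein-coding genes. Those lists were chosen by the study from RNA of livers of the same experiment, so they hold genes expressed in liver. They are only part of the genes to which the study gives these periods. The share of all protein-coding genes also counts genes not expressed in liver. A share for liver-expressed genes alone was not computed. Whether periodic genes differ from other expressed genes was therefore not tested.

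**Figure D3:**
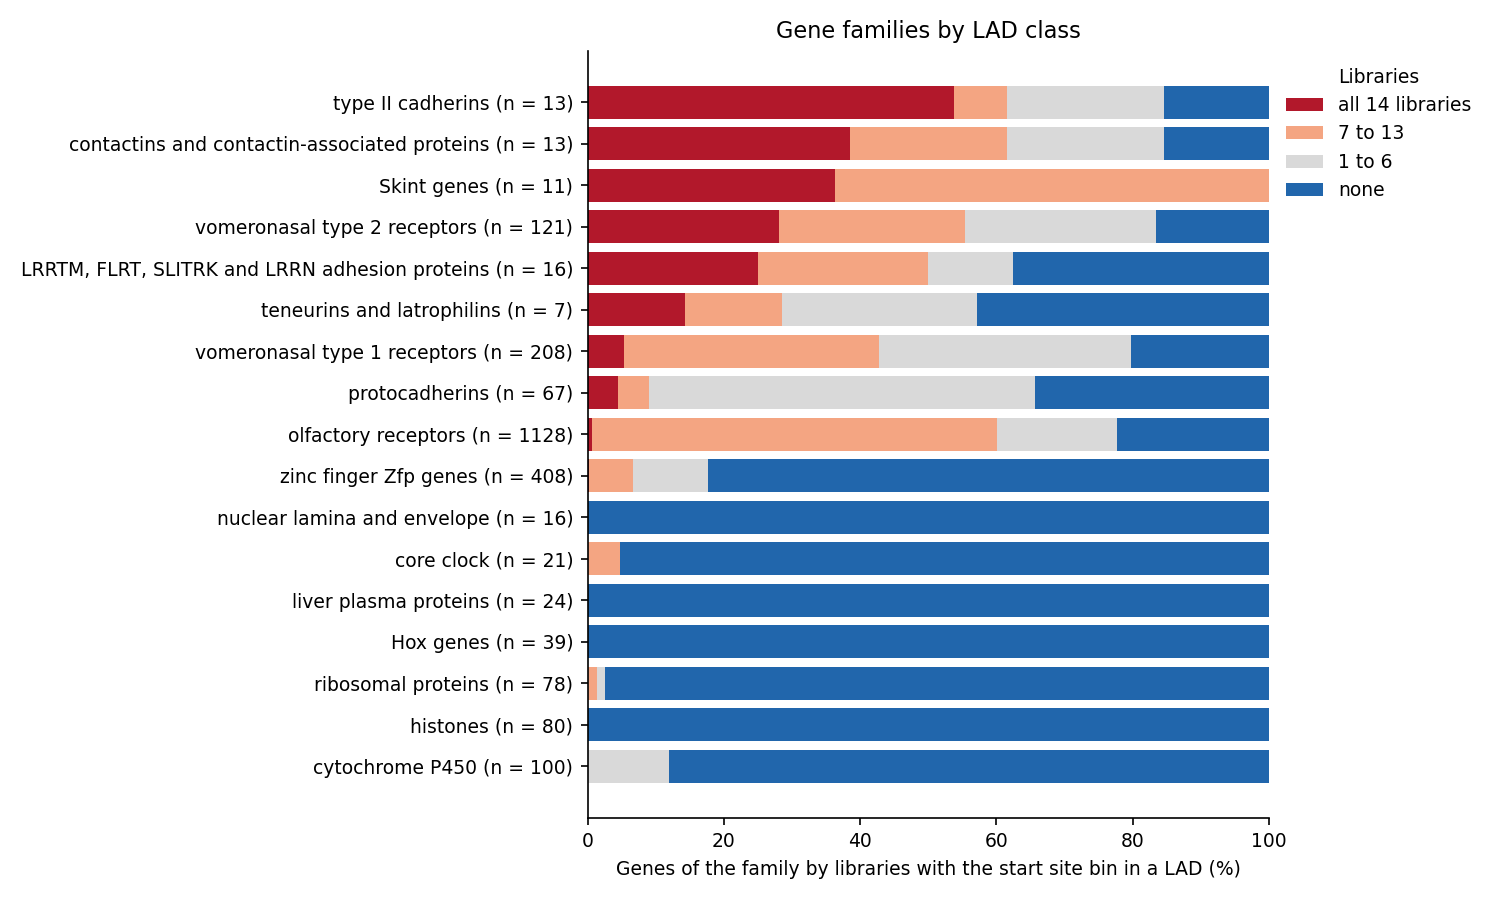
Genes of selected listed families (%) by the number of libraries in which the 100-kb bin of the start site lies in a LAD, with n the number of genes. Other families without a gene in the members are not drawn. Some of these lie mostly in bins of 7 to 13 libraries, such as bitter taste receptors (24 of 35), and others mostly in no LAD, such as potassium channels (77 of 92). Red marks the constitutive LAD bins, with 7 of 13 type II cadherins at the top, and lamina, clock, plasma protein, Hox, ribosomal, histone and cytochrome P450 genes at 0 in red.

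The members held several of the longest genes. Of the 218 protein-coding genes with a body of 500 kb or more, 18 (8.26%) started in a member, beside 0.851% of all genes, and of the 55 of 1 Mb or more, 10 did. Of the 218, 45 started in bins of 7 to 13 libraries, 47 in bins of 1 to 6 and 108 in no LAD. Such genes were 10.2% of the genes in the members, 2.89% in bins of 7 to 13 libraries, 2.55% in bins of 1 to 6 and 0.627% in no LAD. Among the 10 longest were Ptprd (2271 kb), Cntnap2 (2245 kb), Lrrc4c (1314 kb), Cntn5 (1244 kb), Tenm2 (1229 kb), Csmd3 (1211 kb), Cdh12 (1140 kb), Dcc (1097 kb) and Cntn4 (1022 kb). Most of these encode receptors and adhesion molecules of neurons, such as Ptprd, a receptor phosphatase, and Dcc, the netrin receptor that guides axons. The median gene was not long, at 16.3 kb in the members and 19.3 kb in bins in no LAD, so the long genes form a tail. The 90th percentile was 462 kb in the members and 107 kb in bins in no LAD.

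Promoters of the members carried few CG dinucleotides. In RefSeq windows from 250 bases before to 50 after the start, matched by symbol for 138 of the 177 genes, the median ratio of observed to expected CG was 0.161. It was 0.677 in the 13047 windows of genes in no LAD, and 0.148 for genes of 7 to 13 libraries. A ratio of 0.6 or more was found in 22 of the 138 (15.9%) and in 57.1% of those in no LAD. Without olfactory and vomeronasal receptors, the median in the members was 0.260. Shown are the 250 bases before the RefSeq start of 2 of the 3 genes farthest from a LAD border, read 5′ to 3′ along the strand of the gene (GRCm38.p6), with CG in capitals.
Cdh10, chr15:18820079-18820328, plus strand: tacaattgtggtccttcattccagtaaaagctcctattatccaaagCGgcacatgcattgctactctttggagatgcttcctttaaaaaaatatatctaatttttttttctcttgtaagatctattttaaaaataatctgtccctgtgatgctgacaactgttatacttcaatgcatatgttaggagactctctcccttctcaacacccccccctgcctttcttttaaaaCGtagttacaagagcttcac
Acot10, chr15:20666751-20667000, minus strand: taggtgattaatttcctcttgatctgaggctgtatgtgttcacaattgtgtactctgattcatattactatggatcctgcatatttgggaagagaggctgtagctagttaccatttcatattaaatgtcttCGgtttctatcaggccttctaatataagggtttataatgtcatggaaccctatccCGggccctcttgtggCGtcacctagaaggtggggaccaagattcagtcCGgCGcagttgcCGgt
The Cdh10 sequence held 2 CG dinucleotides at a GC content of 36.8%, and that of Acot10 held 6 at 44%. The RefSeq start of Cdh10 lies inside the gene body given by GENCODE, which begins at 18818947.

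The members lay deep inside their LADs, in part because the rule keeps only the bins shared by all libraries. The distance from the center of a member to the nearest border of its LAD, taken as the smallest over the 14 libraries, had a median of 764 kb and reached 5364 kb in the block on chr15. It was 500 kb or more in 990 members (66.0%) and 1 Mb or more in 566 (37.8%). In 104 members it was under 100 kb, and in 3 of them the center lay outside the LAD in at least 1 library. Taking the median of the 14 libraries for each member, the middle value was 1529 kb, and 0 members were under 100 kb. The distance cannot exceed the LAD's own reach, so members of long LADs can lie deeper. It was not measured for other LAD bins.

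Cdh10 was the gene farthest from a border, counted from its start site. Its distance was 5033 kb in NS replicate 1 at the lowest, 5498 kb at the median and 6035 kb in CT0 replicate 1 at the highest. For Cdh12 the smallest distance was 4121 kb, for Acot10 3903 kb and for Cdh9 2943 kb, all in the same block. Slitrk6 (2827 kb), Pcdh7 (2668 kb), Dsel (2370 kb), Cdh8 (2356 kb), Slitrk1 (2286 kb) and Gm10801 (2247 kb) came next. Among all 177 genes the median of the smallest distance was 432 kb, 81 genes were at 500 kb or more and 16 at less than 100 kb. At the other end, the start site of Csmd3, a long gene of neurons, lay outside a LAD in CT6 replicate 1, although its bin met the rule, and was between 1005 and 3002 kb from a border in the other libraries.

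Around the blocks, the calls thinned over the 1 Mb looked at. By the rule at least 1 library lacks the first bin outside, so the drop at the block end is no finding. In the first bin outside a block end, the mean number of libraries with a LAD was 12.5 over 104 ends, at the fifth bin it was 8.31 and at the tenth 4.93. At the tenth, 16 of 99 bins were still in a LAD of 13 libraries. GC content rose from 37.7% in the last bin inside to 37.9% in the first outside and to 39.5% in the tenth. Gene density took an uneven course inside the blocks. It was 1.63 genes per Mb in the last bin inside, 2.98 and 2.35 in the next bins inward, between 0.674 and 0.930 at −550 to −850 kb and 1.35 at −950 kb. Outside it was 2.60 in the first bin and 5.45 in the tenth. The library with the shortest reach at a block end was most often CT30 replicate 2, with 15 of 104 ends, then CT30 replicate 1 with 13 and NS replicate 1 with 12, and CT24 replicate 1 set none.

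**Figure D4:**
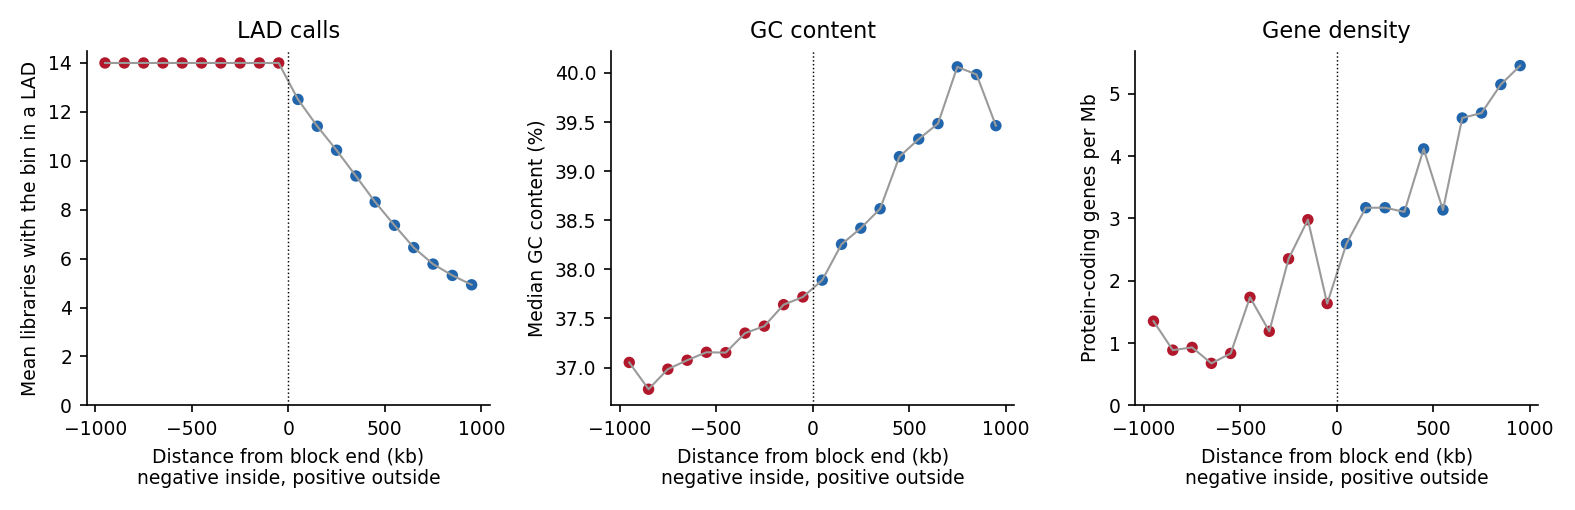
Mean number of libraries with the bin in a LAD, median GC content (%) and protein-coding genes per Mb in 100-kb bins by distance from the nearest end of a block (kb; inside negative and red, outside positive and blue; up to 104 ends). Libraries fall from 14 inside, which the rule fixes, to 4.93 at 950 kb outside, and GC content goes from 37.9% in the first bin outside to 39.5% at 950 kb.

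The question of whether the circadian time moved the LADs around the members was asked with 1 value per mouse. The rule treated all libraries alike but used the same LAD calls. The library whose LAD ends first sets a block end, so members there lie near its border by the rule. The median distance of the members from the nearest border was 1485 and 1302 kb in NS, 1662 and 1506 kb at CT0, 1580 and 1460 kb at CT6, and 1405 and 1560 kb at CT12. It was 1922 and 1560 kb at CT18, 1876 and 1540 kb at CT24 and 1387 and 1346 kb at CT30. CT18 had the highest mean, 1741 ± 256 kb (SD, n = 2), and CT30 the lowest, 1367 ± 29.0 kb (SD, n = 2). Both CT30 mice lay below every other CT mouse. They also set the most block ends (13 and 15 of 104 in replicates 1 and 2), so this order is not independent of the rule. The F ratio of the spread between the 6 CTs to that between replicates was 1.56, which did not pass the threshold. All 10395 ways to divide the 12 libraries into pairs were enumerated (exact permutation test, p = 0.253, adjusted p = 0.281 over 3 comparisons). From NS to CT0 the mean went from 1394 to 1584 kb, a difference of 190.5 kb. With 2 mice against 2 the exact two-sided permutation test cannot go below p = 0.33, which is the value found (p = 0.333).

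All members were held by few LADs. Between 46 (CT18 replicate 1) and 50 (NS replicate 2 and CT30 replicate 2) LADs of a library contained them, which is 15.1% (CT18 replicate 2) to 62.7% (NS replicate 1) of its LADs on chr1 to chr19. The difference in this number between CTs did not pass the threshold (F ratio 1.84, exact permutation test, p = 0.281, adjusted p = 0.281). The members made up 45.0 and 28.8% of the LAD coverage in NS, 35.4 and 26.1% at CT0, 30.3 and 26.1% at CT6 and 27.3 and 25.8% at CT12. The share was 24.3 and 23.0% at CT18, 23.7 and 28.9% at CT24 and 37.9 and 38.6% at CT30. Since nearly all member bases were covered in every library (99.85% in CT24 replicate 2 at the lowest), this share restates the inverse of the total LAD coverage. The CT30 mice stood above all other CT mice, but the CTs as a whole did not differ beyond the threshold (F ratio 4.72, exact permutation test, p = 0.0701, adjusted p = 0.210). Without CT0 replicate 2 the adjusted p was 0.0433, so this call rests on 1 library.

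The length of the LAD around each block was then compared between CTs on the log2 scale. The study set the gap penalty and bin size of EDD for each ChIP-seq dataset, and their part in these lengths was not tested. The same LAD calls set the blocks, so no extent can fall far below the length of its block. These tests are therefore not independent of the rule. Of 52 blocks, 5 (9.62%) passed the exact permutation test at 0.05 after Benjamini-Hochberg adjustment, and 10 did so unadjusted. No block was called with the replicate number as a block in the test (smallest adjusted p of the exact permutation test 0.0578, 12 unadjusted) or with the extent taken relative to the median of the library (0.0700, 14 unadjusted). The 5 blocks stand for 3 LADs, since the neighboring blocks on chr7, and those on chr16, share a LAD in all libraries but 1. The largest F ratio was that of the block at chr14:82700001-84900000, which holds Pcdh17, a protocadherin. Its LAD measured 18.99 and 18.22 Mb at CT0, 4.94 and 5.34 Mb at CT6, 18.17 and 18.44 Mb at CT12, 15.88 and 6.20 Mb at CT18, 18.63 and 17.41 Mb at CT24 and 5.58 and 4.28 Mb at CT30. Both mice were long at CT0, CT12 and CT24 and both short at CT6 and CT30, with no overlap between these 2 sets, while the CT18 mice split. Both mice of a CT may share an input library, and its part in this pattern was not tested. The F ratio was 10.0 (exact permutation test, adjusted p = 0.0410). The NS mice also split, at 4.88 and 17.57 Mb.

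In the other 2 regions single libraries stood apart from the rest, and the F ratios were lower. At chr7:9900001-10900000 and chr7:11600001-12000000, which hold vomeronasal receptors, the extent at CT0 was 2.40 Mb in replicate 1, and in replicate 2 it was 0.992 and 0.356 Mb. The other CT libraries lay between 2.75 and 3.11 Mb. The F ratios were 2.18 and 1.48 (exact permutation test, adjusted p = 0.0363 for both). At chr16:79300001-80100000 and chr16:81600001-84400000 the extent was 18.34 Mb in CT18 replicate 1, 1.24 and 3.04 Mb in CT30 replicate 2, and between 5.33 and 5.83 Mb in the other CT libraries. The F ratios were 1.36 and 1.39 (exact permutation test, adjusted p = 0.0363 for both). These 4 blocks were called with smaller F ratios than that of a block on chr10 (103100001 to 104300000, with Slc6a15 and Lrriq1), which was 7.06 and was not called (exact permutation test, adjusted p = 0.131). There the LAD measured 1.24 and 1.29 Mb at CT30, 1.68 and 3.77 Mb at CT6, and between 4.16 and 6.69 Mb in the other CT libraries. The chr10 block was named after its values were seen. The calls were not stable: leaving out 1 library at a time, 0 blocks were called in 11 of 12 cases, and 1 block on chr16 without CT18 replicate 2. The adjusted p of the Pcdh17 block was then between 0.152 and 0.711, and its unadjusted p between 0.0126 and 0.0342.

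**Figure D5:**
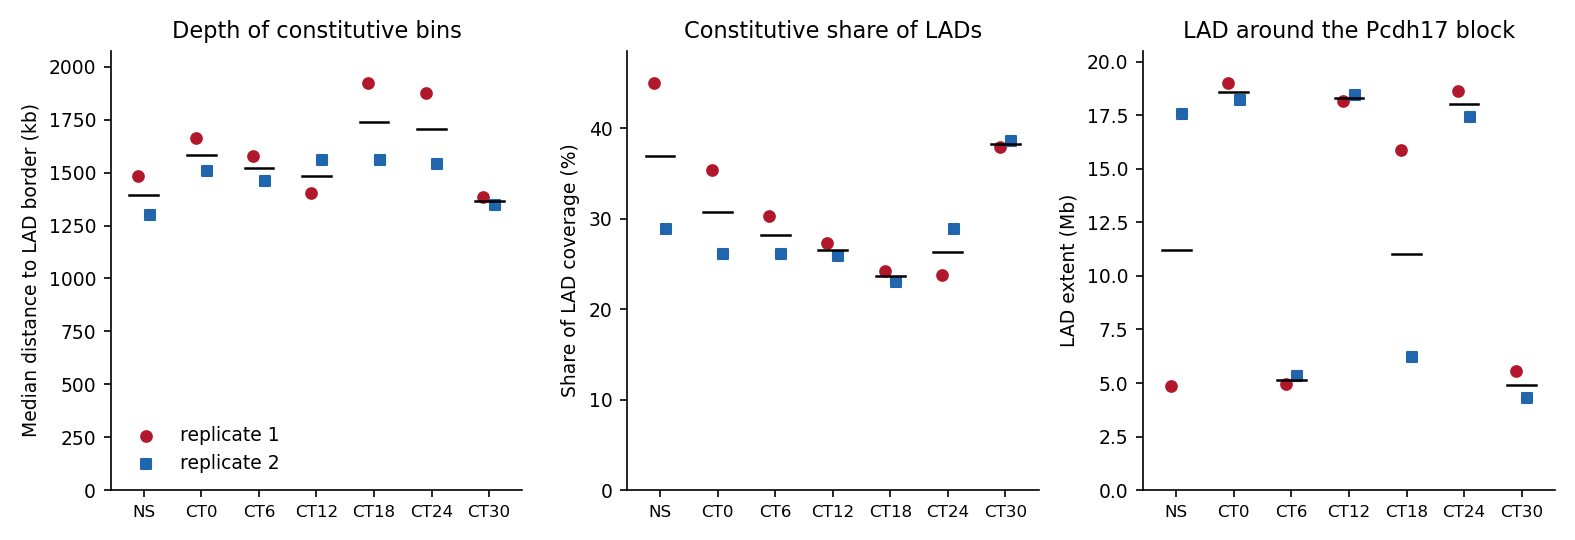
Median distance of the members from the nearest LAD border (kb), share of LAD coverage in the members (%) and extent of the LAD around the block with Pcdh17 (Mb), by time point (x axis). Each point is 1 mouse (circles replicate 1, squares replicate 2) and bars are the mean of 2; the LAD around Pcdh17 is above 17 Mb in both mice at CT0, CT12 and CT24 and below 6 Mb in both at CT6 and CT30.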

How the data were processed

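LMNB1 ChIP-seq LADs were taken from 14 liver libraries, grouped by their labels. Replicate numbers follow the sample titles, and the deposited files of 3 libraries (NS replicate 2, CT0 replicate 2 and CT12 replicate 1) carry another number. The members, gene lists and tests were chosen with earlier results of these data known. The authors mapped the reads (Bowtie2 2.25.0 in the submitters' processing notes), removed duplicates with Picard, brought ChIP and input to equal depth per chromosome and ran EDD for every mouse. Gap penalty and bin size of EDD were set for each dataset. The deposited LADs are other values than a score, namely start and end on mm10, so depth and counting error are unknown. Inputs and RNA-seq were not analysed here.

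Bins of 100 kb were tiled over chr1 to chr19. LADs less than 1 kb apart (65 joins) were joined for distances and extents. Genes were from GENCODE vM21 and ascribed by the transcription start site, sequence from GRCm38.p6, and family lists from gene symbols. The 12 h and 24 h lists are those of the study, by symbol only. Time points were compared by the F ratio with an exact permutation test and Benjamini-Hochberg adjustment. The permutation test was tried on simulated normal values, without the adjustment and without single outlying libraries. Analyses used Python 3.11.15, NumPy 2.4.6, SciPy 1.17.1 and pandas 2.3.3. P-values measure the spread between mice, 2 per time point, whose LAD calls may share an input. Named were the 10 longest blocks, the 10 genes farthest from a border, the 10 longest genes, up to 3 genes per family and every symbol stem with 5 or more genes. Alternatives included other cover limits, bin sizes and grids, LADs of at least 1 Mb only, gene bodies in place of start sites and each library left out. A few genes and 1 sequence window are not reported here.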

Additional observations from a re-analysis of the deposited data

How the results depend on the processing

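The length of the members stayed at 145.3 to 155.4 Mb for covers of 1 bp to the whole bin, bins of 50 and 200 kb and a shifted grid, and it was 197.2 Mb with the 12 CT libraries only. Leaving out each library, the length was 149.9 to 195.3 Mb, the number of blocks 51 to 71, the GC difference −6.47 to −6.39 percentage points and the gene density 1.13 to 2.14 per Mb. The genes of listed families numbered 83, and 83 to 273 with a library left out, the highest without NS replicate 1 and 141 without CT0 replicate 1. The F ratios then were 0.962 to 2.99 for the median distance, 1.14 to 3.18 for the number of LADs and 2.42 to 12.4 for the share of coverage (exact permutation tests), and CT0 minus NS was 99 to 282 kb. Leaving out libraries for the number of blocks, the families and CT0 against NS was chosen after seeing the data.

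The count of blocks whose LAD extent differed between CTs, 5, was 2 with NS as a seventh time point, 0 with the extent relative to the median of the library, and 0 to 1 with a library left out. With LADs not joined across gaps, an alternative chosen after seeing the data, the same 5 blocks were called. The main tests did not pair the mice by replicate number. Correlations of deviations were −0.681 to 0.499, with 7 of 21 over 0.1. The replicates still differed, and the median distance was smaller in replicate 2 at 6 of 7 time points. The largest extent of a block was in replicate 1 for 7 (NS), 5 (CT0), 4 (CT6), 0 (CT12), 16 (CT18), 7 (CT24) and 7 (CT30) blocks. In replicate 2 it was so for 0, 0, 2, 1, 1, 2 and 0 blocks. The source of this difference was not tested. With the replicate number as a block, 0 blocks were called (smallest adjusted p of the exact permutation test 0.0578), the other CT comparisons kept their side of the threshold, and p for CT0 against NS was 0.50. The cause of the lost calls was not tested. Depth is unknown, and 2 mice per time point limit every comparison.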
